A study of Homo sapiens with 4 samples.

Results

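The genes described here make, sense and remove lysophosphatidic acid (LPA), a bioactive lipid, or remodel the phospholipids it comes from. They were chosen by name, as ENPP2, LPAR1, LPAR2, LPAR3, LPAR5, PLPP1, PLPP2, PLPP3, PLAAT1 and PLAAT3, and every probe set that the array's annotation assigns to 1 of these genes alone was taken. This gave 19 of the 54675 probe sets, for 9 of the 10 genes and of the 19775 genes with a probe set; LPAR5 was not analysed here. The cells were PLC8024, a human hepatocellular carcinoma line, which flow cytometry split into a CD133+ and a CD133- population. CD133 is a surface protein, encoded by PROM1, used to enrich tumour-initiating cells of liver cancer. The groups come from 1 cell line, and the labels name no allele, no agent and no difference other than the sort. Each population was deposited in 2 processings, 1 column of RMA values on the log2 scale and 1 of linear MAS5 intensities. The labels do not say whether both columns of a population come from one array, and they were not treated as replicates. No difference below therefore has a replicate check, and the number of arrays limits its precision.

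Autotaxin, the product of ENPP2, is a secreted lysophospholipase D that produces LPA from lysophosphatidylcholine outside the cell. LPA acts through G protein-coupled receptors, among them those encoded by the LPAR genes, which couple to phospholipase C and to inhibition of adenylyl cyclase. Lipid phosphate phosphatases of the PLPP family face the outside of the cell or the lumen of organelles and remove the phosphate of LPA and related lipids. The PLAAT enzymes act within the cell as phospholipases and acyltransferases that move acyl chains between phospholipids. Autotaxin and LPA have been studied in liver fibrosis and liver cancer.

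PROM1 measured 10.35 in CD133+ cells and 6.04 in CD133- cells on the RMA scale, a 19.9-fold difference in the direction of the labels. A probe set was above the floor where the higher of its RMA values was at least the median of all probe sets in that population, 5.16 in CD133+ or 5.14 in CD133-. Of 12 hepatocyte and hepatoma markers with a probe set, 12 were above the floor, beside 13116 of all 19775 genes. A gene, represented by the one of its probe sets that had the highest mean in RMA (its main probe set), was counted as higher or lower if it was above the floor and differed at least 2-fold the same way in both processings. The differences of 2 probe sets of a gene varied around each other with an SD of 0.35 in RMA and 0.79 in MAS5 over 6170 genes, a spread that leaves out variation between sorts and cultures.

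The promoters of PLAAT1, the gene with the lowest RMA difference among the 9, and PLPP3, the gene with the highest, are shown because these genes lay at opposite ends in RMA. In MAS5 ENPP2 was the lowest and LPAR2 the highest. They are taken from RefSeq on GRCh38.p14, from 250 bases before to 50 bases after the annotated start, 5′ to 3′ on the gene's strand. The PLAAT1 sequence lies at chr3:193240972-193241271 on the + strand and the PLPP3 sequence at chr1:56579514-56579813 on the - strand. Capitals mark matches on either strand to TATAAA, the TATA box, to CCAAT, the CCAAT box, or to GGGCGG, the GC box, where matches of one motif may overlap.
PLAAT1: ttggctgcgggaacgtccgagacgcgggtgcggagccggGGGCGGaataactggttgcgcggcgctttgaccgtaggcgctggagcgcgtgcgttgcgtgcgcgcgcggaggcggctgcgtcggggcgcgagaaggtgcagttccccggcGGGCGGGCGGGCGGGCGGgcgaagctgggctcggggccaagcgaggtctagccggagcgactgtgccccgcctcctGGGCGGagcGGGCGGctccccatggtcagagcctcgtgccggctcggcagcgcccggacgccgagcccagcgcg
PLPP3: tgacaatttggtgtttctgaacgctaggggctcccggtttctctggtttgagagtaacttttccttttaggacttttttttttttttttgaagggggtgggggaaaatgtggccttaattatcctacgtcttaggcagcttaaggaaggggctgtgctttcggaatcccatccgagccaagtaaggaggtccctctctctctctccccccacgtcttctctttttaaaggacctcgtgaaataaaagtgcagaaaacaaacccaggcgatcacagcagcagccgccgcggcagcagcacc
The PLAAT1 window held 7 matches to the GC box and 50 CG dinucleotides at a GC content of 76.7%. The PLPP3 window held 0 matches to the GC box and 11 CG dinucleotides at a GC content of 49%. Over 35116 RefSeq promoter windows of the same length, 45.0% held the GC box, 34.6% the CCAAT box and 11.5% the TATA box, with a median of 14 CG dinucleotides. Neither window held a TATA box or CCAAT box match. These matches describe the letters of the windows, and the arrays measured neither binding nor methylation there.

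ENPP2 and PLAAT1 were the 2 genes of the 9 counted as lower in CD133+, and 0 were counted as higher. Over the 13116 genes above the floor, 1.09% were counted as lower and 2.25% as higher. The 9 genes were all above the floor, 6 with an RMA difference above 0 and 3 below 0, and their median was 0.089 against 0.00 for all genes above the floor. The members were listed with these differences known, so the counts describe them and test nothing. In sorted populations measured in bulk, fewer cells that express a gene and less RNA per cell cannot be told apart.

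ENPP2, which encodes autotaxin, measured 4.41 in CD133+ cells and 7.25 in CD133- cells on the RMA scale in its main probe set. The MAS5 intensities of that probe set were 122 in CD133+ and 828 in CD133-. Both processings thus placed the CD133+ value lower, at -2.83 for the RMA difference and -2.76 for the MAS5 log2 ratio. The second ENPP2 probe set measured 4.01 in CD133+ cells and 6.07 in CD133- cells on the RMA scale. Its MAS5 intensities were 48.3 in CD133+ and 323 in CD133-, and its log2 differences were -2.06 in RMA and -2.74 in MAS5. Both probe sets were under the floor in CD133+ and above it in CD133-, so no fold is given, and the differences are of uncertain size because of those CD133+ values. The RMA differences of the 2 probe sets lay more than 1 SD of 0.35 apart.

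**Figure D1:**
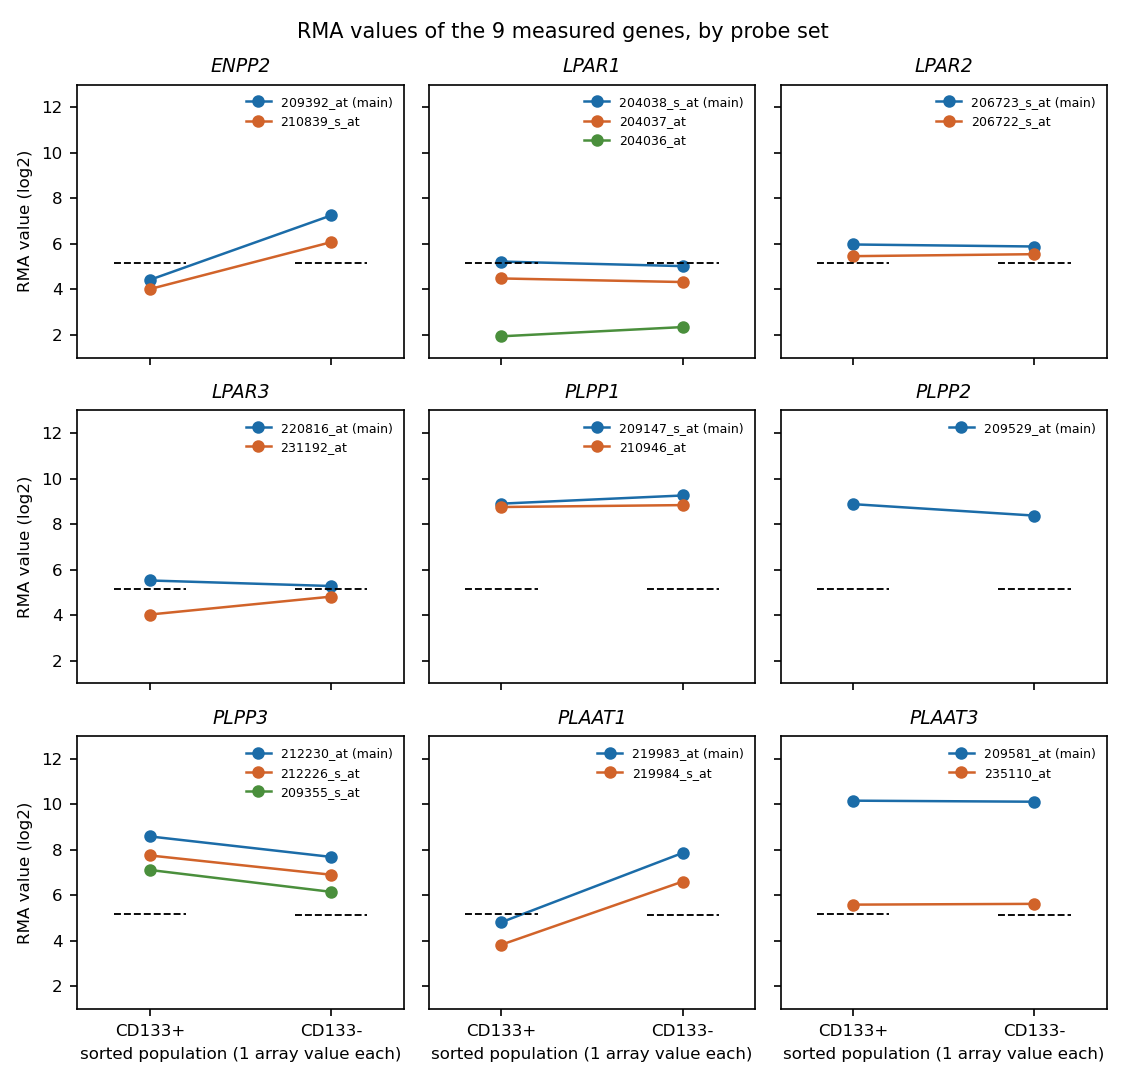
RMA values (log2, y axis) of every probe set of the 9 measured genes in the CD133+ and the CD133- population (x axis), with a line joining the values of 1 probe set and dashed marks at the median of each column. Both ENPP2 and both PLAAT1 probe sets lie under the dashed mark in CD133+ and above it in CD133-, and the 3 PLPP3 lines all run down towards CD133-.

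The LPA receptors gave values close to or under the floor in both populations. LPAR1, LPAR2 and LPAR3 encode the receptors of the endothelial differentiation gene family, and their 7 probe sets had RMA values from 1.93 to 5.97 in CD133+ and from 2.34 to 5.88 in CD133-. Of the 7 probe sets, 3 reached the floor in both populations, 3 in neither, and 0 reached the 75th percentile of a column, which was 6.94 in CD133+ and 6.95 in CD133-. No LPA receptor was counted in either direction.

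LPAR1, the most widely expressed LPA receptor across tissues, measured 5.22 in CD133+ cells and 5.02 in CD133- cells on the RMA scale in its main probe set. Its MAS5 intensities there were 61.3 in CD133+ and 78.2 in CD133-. The RMA difference of 0.20 and the MAS5 log2 ratio of -0.35 had opposite signs. The other LPAR1 probe sets were below the floor, with RMA differences of 0.16 and -0.41. The last of these had MAS5 intensities of 1.72 in CD133+ cells and 33.3 in CD133- cells, a log2 ratio of -4.28 between intensities that were both under the MAS5 median of 86.0 in CD133+ and 86.1 in CD133-. For probe sets below the floor, the central 95% of MAS5 log2 ratios ran from -3.23 to 3.36, against -0.50 to 0.54 for RMA differences.

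LPAR2 measured 5.97 in CD133+ cells and 5.88 in CD133- cells on the RMA scale, while the MAS5 intensities of the same probe set were 238 in CD133+ and 64.5 in CD133-. The processings gave unlike sizes for this probe set, 0.089 in RMA and 1.89 in MAS5. The second LPAR2 probe set, with RMA values of 5.45 for CD133+ cells and 5.54 for CD133- cells and MAS5 intensities of 135 in CD133+ and 112 in CD133-, had a log2 ratio of 0.27 in MAS5. LPAR3 measured 5.52 in CD133+ cells and 5.28 in CD133- cells on the RMA scale, with MAS5 intensities of 50.5 in CD133+ cells and 129 in CD133- cells. Its RMA difference of 0.24 and its MAS5 log2 ratio of -1.35 pointed in opposite directions. The second LPAR3 probe set, under the floor in both populations, differed by -0.79 in RMA and by -1.13 in MAS5 (log2). In MAS5 alone LPAR2 would be counted as higher and LPAR3 as lower, and in RMA neither came near 2-fold in the probe set that stood for it.

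**Figure D2:**
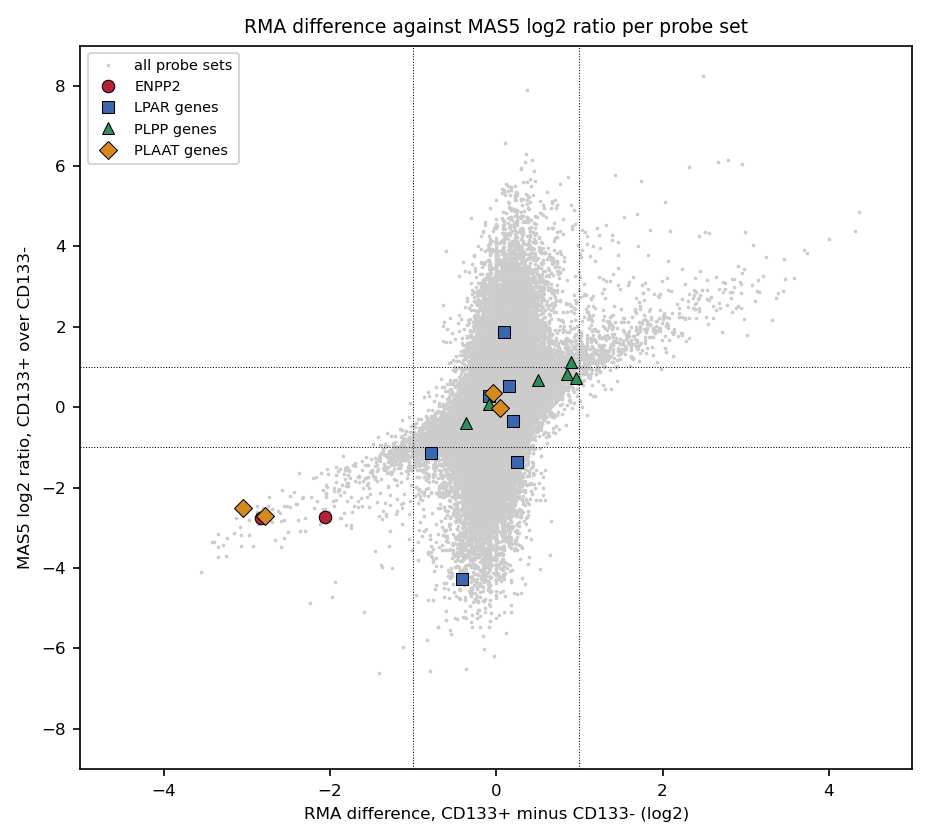
RMA difference (log2, x axis) against MAS5 log2 ratio (y axis) of CD133+ over CD133-, with 1 point for each probe set, all probe sets in grey and those of the described genes in colour; dotted lines mark 2-fold. The ENPP2 points and a pair of PLAAT points lie together at the lower left, while the LPAR points spread along the MAS5 axis from -4.28 to 1.89 at RMA differences between -0.79 and 0.24.

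Among the lipid phosphate phosphatases, PLPP3 had the highest difference of the 9 genes and PLPP1 lay to the CD133- side. PLPP3, also known as LPP3, measured 8.59 in CD133+ cells and 7.69 in CD133- cells on the RMA scale in its main probe set, with MAS5 intensities of 1877 in CD133+ and 867 in CD133-. This is 1.87-fold in RMA and 2.17-fold in MAS5, so that PLPP3 missed the 2-fold rule in RMA. The second PLPP3 probe set measured 7.75 in CD133+ cells and 6.91 in CD133- cells on the RMA scale, with MAS5 intensities of 902 in CD133+ and 508 in CD133-. The remaining one had 7.12 in CD133+ and 6.15 in CD133- in RMA, with MAS5 intensities of 418 in CD133+ and 251 in CD133-. All of the 3 probe sets were higher in CD133+ in both processings, with RMA differences of 0.90, 0.85 and 0.96 and MAS5 log2 ratios of 1.12, 0.83 and 0.73. Each of these RMA differences exceeded the SD of 0.35 between probe sets of a gene, while in MAS5 the lowest ratio, 0.73, was under the SD of 0.79. These SDs describe how far probe sets of a gene lie apart, and not the error of a difference between the populations. The 3 probe sets are not replicates. In RMA 97.2% of genes above the floor had a lower difference than the main one. At a threshold of 1.5-fold PLPP3 was counted as higher, as were 5.32% of genes above the floor, with 4.17% lower.

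PLPP2 measured 8.87 in CD133+ cells and 8.37 in CD133- cells on the RMA scale, with MAS5 intensities of 2134 in CD133+ cells and 1322 in CD133- cells. Its single probe set was 1.42-fold higher in RMA and 1.61-fold in MAS5, which is under the threshold. PLPP1 measured 8.90 in CD133+ cells and 9.26 in CD133- cells on the RMA scale in its main probe set, with MAS5 intensities of 1829 in CD133+ and 2379 in CD133-. The second PLPP1 probe set measured 8.75 in CD133+ cells and 8.83 in CD133- cells on the RMA scale. Its RMA difference was -0.084, against -0.36 in the main one, and its MAS5 log2 ratio was 0.077 against -0.38. The phosphatases were thus measured well above the floor in both populations, and none was counted.

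**Figure D3:**
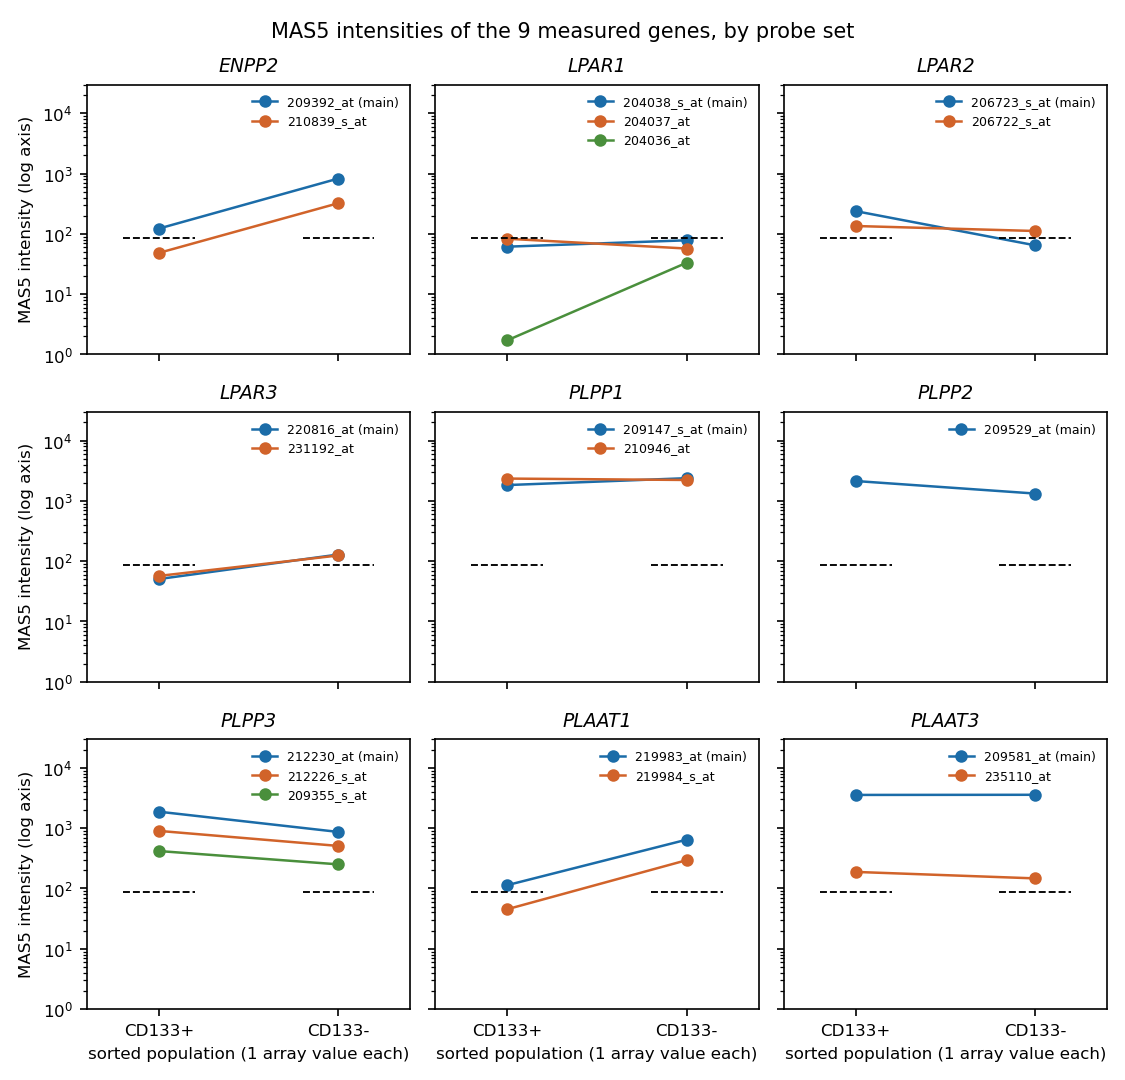
MAS5 intensities (log axis, y) of every probe set of the 9 measured genes in CD133+ and CD133- (x axis), with a line joining the values of 1 probe set and dashed marks at each column's median. The 3 PLPP3 probe sets run from 418 to 1877 in CD133+ and from 251 to 867 in CD133-. The LPAR probe sets run from 1.72 to 238 over both populations, some above and some under the medians.

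PLAAT1 and PLAAT3 gave unlike differences between the populations. PLAAT1, also called HRASLS, measured 4.82 in CD133+ cells and 7.87 in CD133- cells on the RMA scale in its main probe set. The MAS5 intensities of that probe set were 114 in CD133+ and 646 in CD133-. The RMA difference was -3.05 and the MAS5 log2 ratio -2.51. The second PLAAT1 probe set measured 3.83 in CD133+ cells and 6.61 in CD133- cells on the RMA scale, with MAS5 intensities of 45.3 in CD133+ and 295 in CD133-. Its RMA difference of -2.78 lay within 1 SD of that of the main probe set, and its MAS5 log2 ratio was -2.70. As for ENPP2, the CD133+ value was under the floor in both probe sets, so no fold is given and the size of the difference is uncertain. The MAS5 intensity of the main probe set in CD133+ was above that column's median of 86.0 for both genes, at 114 for PLAAT1 and 122 for ENPP2, while that of the second probe set was under it.

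PLAAT3, known in mice as the adipose phospholipase that limits the breakdown of stored fat, measured 10.16 in CD133+ cells and 10.11 in CD133- cells on the RMA scale. Its MAS5 intensities were 3561 in CD133+ and 3581 in CD133-. The difference was 0.046 in RMA and -0.0078 in MAS5, the smallest of the 9 genes in both processings. The second PLAAT3 probe set measured 5.59 in CD133+ cells and 5.63 in CD133- cells on the RMA scale, with a MAS5 log2 ratio of 0.36. The other PLAAT genes on the array were PLAAT2, PLAAT4 and PLAAT5, and none of them was counted. PLAAT4, a retinoid-induced member of the family, measured 4.89 in CD133+ cells and 4.95 in CD133- cells on the RMA scale, and PLAAT5 had 4.54 in CD133+ and 3.94 in CD133-, all under the floor.

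The wider LPA and phospholipid pathway was described with 7 gene lists that hold 98 genes, of which 90 had a probe set and 70 were above the floor. Of the 70 genes, 1 was counted as higher and 2 as lower in CD133+, beside 2.25% and 1.09% of all genes above the floor. Their median RMA difference was -0.065, with 30 above 0 and 38 below 0. Over all genes above the floor 48.2% were above 0 and 49.9% below 0.

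The genes counted were acyltransferases of glycerolipid synthesis and remodelling. MBOAT1, which acylates lysophospholipids, measured 7.86 in CD133+ cells and 6.22 in CD133- cells on the RMA scale, and its MAS5 intensities were 587 in CD133+ and 253 in CD133-. It was 3.12-fold higher in RMA, with a MAS5 log2 ratio of 1.22, from a single probe set. AGPAT4, which converts LPA to phosphatidic acid, measured 5.24 in CD133+ cells and 6.5 in CD133- cells on the RMA scale, which is 2.39-fold lower. Its MAS5 intensities were 17.3 in CD133+, well under the column's median, and 277 in CD133-, and its RMA difference closest to 0 over its probe sets was -0.79, under 2-fold. AGPAT4 was no longer counted once the floor was raised to the 75th percentile. GPAT3, which makes LPA inside the cell from glycerol 3-phosphate, measured 7.45 in CD133+ cells and 8.46 in CD133- cells on the RMA scale. Its RMA difference lay at the threshold, with a MAS5 log2 ratio of -1.12. GPAT3 has a single probe set, whose name ends in _s_at. Leaving out probe sets whose names end in _x_at or _s_at therefore removed the gene, which says nothing about its difference.

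Among the LPA and phosphatidic acid producing enzymes, 17 genes were above the floor with a median of 0.051, and GPAT3 was the one counted. DGKA and DGKH, kinases that turn diacylglycerol into phosphatidic acid, had RMA differences of 0.81 and 0.71 and MAS5 log2 ratios of 0.44 and 1.56. The 2 probe sets of DGKA had RMA differences from 0.81 to 1.24, and the 5 of DGKH from -0.083 to 0.71. With the median over probe sets DGKA was counted as higher, at an RMA difference of 1.03. LIPH, a phospholipase that forms LPA at the cell surface, chosen after its values were seen, had 0.71 in RMA and 1.08 in MAS5. The other of the 2 LIPH probe sets had an RMA difference of 1.23. The LPA acyltransferases with the LPA phosphatase ACP6 had a median of -0.24 over 11 genes, 9 of them below 0, and AGPAT5 had a difference of -0.73. Of the other LPA receptors, LPAR6 alone was above the floor, with RMA values of 5.27 for CD133+ cells and 5.55 for CD133- cells. LPAR4 and P2RY10 were below it.

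Relatives of the described enzymes went both ways without being counted. ENPP3, an ectonucleotidase, and PLPP6, a phosphatase of isoprenoid diphosphates, had RMA differences of -0.85 and -0.79. The 3 probe sets of ENPP3 had RMA differences from -0.85 to 0.23. PLPP5, a phosphatase with 4 probe sets, measured 11.16 in CD133+ cells and 10.41 in CD133- cells on the RMA scale, and its probe sets had differences from 0.075 to 0.86. The median of the 10 relatives above the floor was -0.063 in RMA and -0.47 in MAS5.

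**Figure D4:**
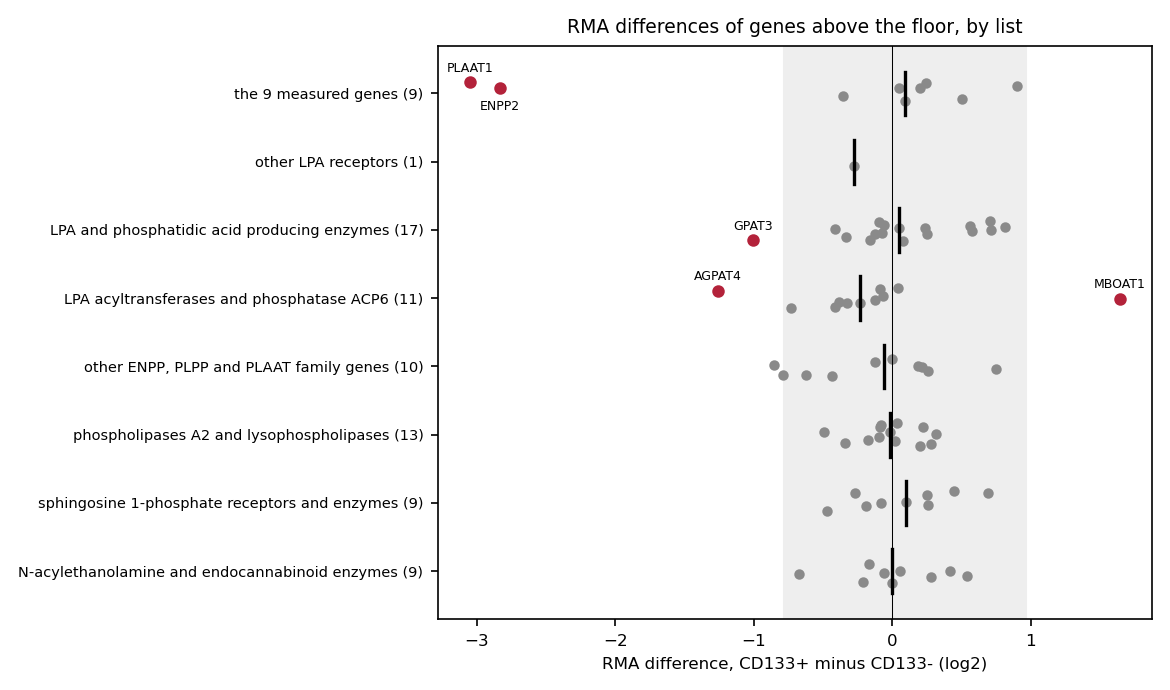
RMA difference (log2, x axis) of each gene above the floor in the described genes and in the 7 pathway lists (rows, number of genes in brackets); red points are counted genes, black bars are medians, and the grey band is the central 95% of all genes above the floor, from -0.78 to 0.96. PLAAT1 and ENPP2 lie at -3.05 and -2.83, beyond every gene of the pathway lists, which ran from -1.26 to 1.64.

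Phospholipases A2 and lysophospholipases had a median of -0.015 over 13 genes, and none was counted. PAFAH1B2, a subunit of the platelet-activating factor acetylhydrolase, had the largest difference there at -0.49, followed by LYPLA1 at -0.35 and PLA2G12B at 0.31. Genes of sphingosine 1-phosphate, the lipid mediator that PLPP enzymes also dephosphorylate, had a median of 0.096 over 9 genes with none counted. S1PR5, a receptor of it, measured 5.97 in CD133+ cells and 5.28 in CD133- cells on the RMA scale, while SGPP1 and SPHK1, a phosphatase and a kinase, had differences of -0.47 and 0.44. Enzymes of N-acylethanolamines and endocannabinoids had a median of 0.00 over 9 genes, with ABHD6, a monoacylglycerol lipase, at -0.68, GDE1 at 0.54 and NAPEPLD at 0.42.

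The genes most like ENPP2 and PLAAT1 in the pair of RMA difference and MAS5 log2 ratio were found by Euclidean distance over all genes above the floor. For ENPP2 they were AFP, which encodes alpha-fetoprotein, at a distance of 0.066, FOXQ1, a forkhead factor, at 0.15, and DDC, the aromatic amino acid decarboxylase, at 0.15. For PLAAT1 they were CSTA, a cysteine protease inhibitor, at 0.18, CFI, complement factor I, at 0.19, and GPX2, a glutathione peroxidase, at 0.24. These distances rest on 1 CD133+ and 1 CD133- population and on ENPP2 and PLAAT1 differences whose CD133+ value is under the floor, so the order of the nearest genes is uncertain.

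Some hepatocyte markers were lower in CD133+, as ENPP2 and PLAAT1 were. Of the 12 hepatocyte and hepatoma markers 4 were counted as lower, ALB, AFP, APOA1 and GPC3, and 0 as higher. Of all genes above the floor, 1.09% were counted as lower and 2.25% as higher. The probe sets closest to 0 had RMA differences of -0.22 for ALB, -0.66 for APOA1 and -0.78 for GPC3, under 2-fold. The summed MAS5 intensity of the hepatocyte and hepatoma list was 178371 in CD133+ and 206811 in CD133-. SERPINA1 and TF, also made by hepatocytes, had RMA differences of 0.057 and -0.23. Of the markers of other cells, 4 of 7 leukocyte, 1 of 5 endothelial, 3 of 8 fibroblast and stellate cell and 2 of 2 erythroid markers were above the floor. Of all 19775 genes with a probe set, 13116 were above it. The floor is a column median, so passing it does not show that such cells were present. The summed intensities of the leukocyte list were 10803 in CD133+ and 4323 in CD133-, and those of the endothelial list 303 in CD133+ and 959 in CD133-. The fibroblast and stellate cell list summed to 1021 in CD133+ and 564 in CD133-, and the erythroid list to 210.1 in CD133+ and 174 in CD133-. Most of the leukocyte sum came from LYZ, with 10257 in CD133+ and 4008 in CD133-, and most of the endothelial sum from PECAM1, with 268 in CD133+ and 913 in CD133-. LYZ was counted as higher and PECAM1 as lower. The leukocyte markers CD3E, CD79A and ITGAM and the erythroid markers HBB and ALAS2 were also above the floor, without being counted. So were COL1A1, DCN and ACTA2 of the fibroblast and stellate cell list, though ACTA2 reached the floor in CD133+ alone. Examples of markers below the floor in both populations were PTPRC, CDH5 and COL1A2. The part of these markers in the differences of ENPP2 and PLAAT1 was not tested.

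ENPP2 lies on chromosome 8 and PLAAT1 on chromosome 3, and the neighbouring genes above the floor were read from the order of genes in RefSeq. Of the 6 nearest to ENPP2, 1 was counted, MAL2, a membrane protein of transcytosis, which lies next to it in this order. MAL2 measured 3.66 in CD133+ cells and 6.58 in CD133- cells on the RMA scale, a difference of -2.92 that, as for ENPP2, rests on a CD133+ value under the floor. TAF2, the neighbour on the other side and a subunit of the general transcription factor TFIID, had a difference of -0.37. EXT1, SAMD12, DSCC1 and DEPTOR, further out, had differences of -0.30, 0.37, 0.013 and 0.52. Of the 6 nearest to PLAAT1, 1 was counted, FGF12, an intracellular member of the fibroblast growth factor family, and as higher, with RMA values of 6.02 for CD133+ cells and 3.65, under the floor, for CD133- cells. The genes next to PLAAT1, MB21D2 and ATP13A5, had differences of 0.16 and 0.096, and CCDC50, OPA1 and HES1 had -0.41, 0.24 and 0.29.

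**Figure D5:**
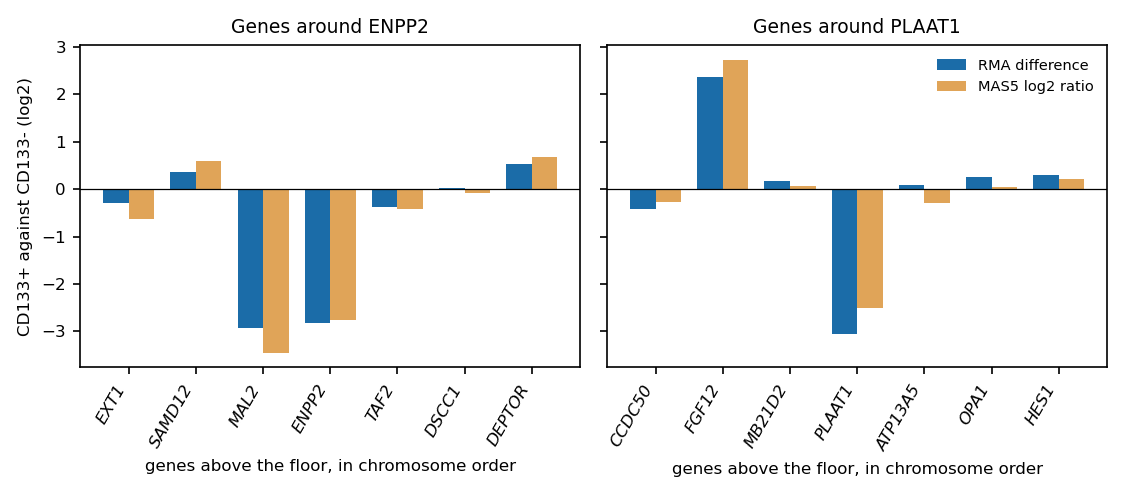
RMA difference and MAS5 log2 ratio (bars, log2, CD133+ against CD133-) of ENPP2 and PLAAT1 and of the 3 nearest genes above the floor on each side, in chromosome order (x axis). MAL2 and ENPP2 stand together at -2.92 and -2.83 in RMA, while PLAAT1 at -3.05 stands between genes at 0.16 and 0.096, with FGF12 at 2.37 beyond; the CD133+ values of MAL2, ENPP2 and PLAAT1 and the CD133- value of FGF12 are under the floor, so these bars have an uncertain length.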

How the data were processed

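Per the labels, total RNA was extracted with Trizol from sorted PLC8024 cells and labelled with biotin. The authors deposited MAS5 intensity values and RMA log2 values; the submitters' processing notes name GCOS, MAS5 and RMA without versions, and the sources used here do not say which arrays were normalized together. Each population thus had 1 value per processing, and no test was possible. No detection calls were used, so the column medians of RMA served as a floor. Gene names came from the platform annotation in GEO, with symbols updated through gene IDs in a RefSeq table of GRCh38.p14 (41043 of the 41097 probe sets with 1 gene; 1801 had several genes and 11777 none or were not listed). The difference of a gene was RMA in CD133+ minus CD133-, with the log2 ratio of MAS5 as second measure. Members, lists and rules were chosen with earlier results of these data known. The text names the 10 listed genes, PROM1, each counted list gene, up to 3 list genes with the largest differences, the neighbours and the 3 most alike genes of counted members; other names are given as examples of markers or relatives. The lists cover other LPA receptors, LPA and phosphatidic acid producing enzymes, LPA acyltransferases with ACP6, ENPP, PLPP and PLAAT relatives, phospholipases A2 with lysophospholipases, sphingosine 1-phosphate genes, N-acylethanolamine and endocannabinoid enzymes, and cell markers; 1 further list is not reported here. Alternatives changed the measure, the probe set that stood for a gene, the floor, the MAS5 pseudocount, the centring and the threshold. The counting code was tested on simulated data with less noise than the observed spread between probe sets, so that test does not show how reliable the counts are. Python 3.11.15, pandas 2.3.3, NumPy 2.4.6 and Matplotlib 3.10.9 were used.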

Additional observations from a re-analysis of the deposited data

How the results depend on the processing

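ENPP2 and PLAAT1 were counted as lower under each of the 9 alternatives. RMA alone, MAS5 alone, no floor and 1.5-fold only loosen the rule, so a gene already counted stays counted under them. Values in RMA or MAS5 ran from -2.86 to -2.35 for ENPP2 and from -3.07 to -2.09 for PLAAT1. For both genes the lowest value was an RMA difference after centring and the highest a MAS5 log2 ratio with a pseudocount of 50. In MAS5 alone 2 of the 9 genes, LPAR2 and PLPP3, were counted as higher, and LPAR3 joined the lower ones, to give 3; in the pathway lists 6 genes were then higher and 4 lower. At 1.5-fold 1 of the 9 genes, PLPP3, was higher, and in the pathway lists 5 were higher and 7 lower. Of all genes above the floor, 5.32% were then higher and 4.17% lower. With the median over probe sets 2 pathway genes were higher, and 1 was lower both without _x_at and _s_at probe sets and with the floor at the 75th percentile. The other 34 counts and medians of these comparisons stayed within 1.5 times, or within 1 SD of the gap between probe sets in RMA, 0.35. MAS5 values were held to this RMA SD too, although the SD in MAS5 was 0.79. Among single genes and lists 81 values stayed within the RMA SD and 11 moved by more, under MAS5 alone, a MAS5 pseudocount of 50 or the median over probe sets. LPAR1, LPAR3 and PLAAT3, none of them counted in RMA, had the opposite sign in MAS5 alone, at -0.35, -1.35 and -0.0078. No paired analysis was possible because each population had 1 array value per processing. MAS5 ratios near and under the array median limit what can be said of the LPA receptors.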

Other observations

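RMA values were identical in CD133+ and CD133- for 3211 of the 54675 probe sets, among them the main probe sets of LPAR4, at 2.64 in both populations, and PLPPR4, a brain-enriched relative of the PLPP enzymes, at 2.51 in both. RMA and MAS5 differences had the same sign in 76.8% of probe sets above the floor and in 61.8% of those below it. For the 19 probe sets described here the sign was the same in 13, which were 10 of the 16 above the floor and 3 of the 3 below it.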
